A study of Mus musculus with 6 samples.

Results

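Most ADAM, ADAMTS and MMP genes encode zinc-dependent proteases that cut cell-surface proteins and extracellular matrix. The family as taken here also holds the protease-like ADAMTSL proteins and some ADAM proteins, which lack a working catalytic site. Members were taken by symbol from the count table (Adam followed by a digit, ts or dec, or Mmp followed by a digit) and kept where at least 3 of the 6 libraries held at least 10 counts. This left 51 of 82 family genes, among 35415 genes in the table: 15 ADAM, 17 ADAMTS, 4 ADAMTSL and 15 MMP genes. All 51 were expressed highly enough to enter the test, which ran on 16841 genes. The libraries came from ovaries of 3-month-old females in estrus, 3 of them Rnf111+/- and 3 wild-type, with 1 mouse per library by its title. The Rnf111+/- mice carry a CRISPR-Cas9 edit in 1 copy of Rnf111, the gene of the ubiquitin ligase Arkadia, which marks inhibitors of TGF-beta family signalling for destruction. The study made 2 edited mouse models, and the sources used here do not say from which of them these ovaries came.

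ADAM proteins sit in the membrane and release the outer parts of growth factors, receptors and adhesion proteins, although some family members have lost the catalytic site. ADAMTS proteases are secreted. They include the proteoglycanases, which cut versican and aggrecan, and the N-proteinases that trim procollagens. MMPs are made as inactive precursors, cut collagens, gelatin and basement membrane, and are held in check by the TIMP proteins. In the ovary, follicle growth, the breaking of the follicle wall at ovulation and the building and removal of the corpus luteum all involve remodelling of the matrix by these enzymes. ADAMTS1 is known as the versican-cutting protease that granulosa cells make after the luteinizing hormone surge, under control of the progesterone receptor, and female mice without it ovulate poorly.

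Libraries held 38261449 to 39474515 counts. Levels are in CPM, a gene's counts relative to a common library total, with totals scaled by the trimmed mean of M values. The floor for detection, 3 counts, was worth 0.0747 to 0.0784 CPM depending on the library. Rnf111 itself was at 44.2, 44.9 and 44.7 CPM in Rnf111+/- ovaries, against 53.8, 53.5 and 54.4 CPM in wild-type ovaries, a log2 fold change of -0.27 ± 0.07 (SE, adjusted p = 0.04). Oocyte, granulosa, theca and luteal marker genes were detected in every library. Wild-type replicate 3 stood apart: across genes its log2 CPM correlated at no more than 0.9831 with the other wild-type libraries, while those 2 correlated at 0.9945. Its oviduct epithelium markers (6 genes) summed to 179 CPM, of which Ovgp1 was 146 CPM, against 10.2 and 16.6 CPM in the other wild-type libraries, and 12.6 to 16.3 CPM in Rnf111+/- ovaries. Its ovarian markers differed too. Luteal markers summed to 2544 CPM in replicate 3, against 973 and 1249 CPM in wild-type replicates 1 and 2, and granulosa markers to 1920 CPM, against 3978 and 3794 CPM. Its oocyte sum, 203 CPM, lay between those of replicates 1 and 2 (208 and 186 CPM). Sums of several marker lists moved with genotype as well, though genes within some lists went both ways. The 8 oocyte markers summed to 272 to 339 CPM in Rnf111+/- ovaries and 186 to 208 CPM in wild-type ovaries, with 5 called as higher. The 6 endothelial markers (239 to 278 CPM in Rnf111+/- ovaries, 326 to 394 CPM in wild-type ovaries, 4 called as lower) and the 7 surface epithelium markers (305 to 368 CPM in Rnf111+/- ovaries, 451 to 481 CPM in wild-type ovaries, 5 called as lower) were lower. Of 6 theca markers, Cyp17a1 rose 69.9-fold, 2 were called as lower, and the sum was 8479 to 10670 CPM in Rnf111+/- ovaries and 12050 to 13040 CPM in wild-type ovaries. The 7 smooth muscle markers summed to 607 to 813 CPM in Rnf111+/- ovaries and 854 to 1111 CPM in wild-type ovaries, with 2 called as lower. The 7 stroma and fibroblast markers summed to 2074 to 2447 CPM in Rnf111+/- ovaries and 3375 to 3959 CPM in wild-type ovaries, with 5 of 7 called as lower. The 5 luteal markers summed to 4923 to 7469 CPM in Rnf111+/- ovaries and 973 to 2544 CPM in wild-type ovaries, with none called as higher and 1 called as lower. Akr1c18, Sfrp4 and Ptgfr were above 0 (log2 3.13, 2.56 and 1.79), and Parm1 (-2.22, the gene called) and Prlr (-0.53) below. The 7 granulosa markers summed to 4154 to 5742 CPM in Rnf111+/- ovaries and 1920 to 3978 CPM in wild-type ovaries, and 1 was called as higher. In bulk ovary RNA, fewer cells of a type and less RNA per cell cannot be told apart, and the part of these shifts in the results below was not tested.

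Between the genotypes, 10 of 51 members passed edgeR's quasi-likelihood test at a Benjamini-Hochberg adjusted p under 0.05. Log2 fold changes are of Rnf111+/- over wild-type and given ± SE, and mean CPM ± SD with n = 3 per genotype. Adamts5, Adamts6 and Adamts2 rose in Rnf111+/- ovaries, and Adamts1, Mmp19, Adamtsl4, Adamts3, Adamts15, Adamts9 and Mmp15 fell. The calls made up 5.88% (higher) and 13.7% (lower) of members, where over all genes tested 9.64% were called, 3.90% as higher and 5.74% as lower. The genotypes did not overlap for all 10 called members and for 21 of 51 members in all (41.2%), where 32.0% of all tested genes did not overlap. These 21 include Mmp3, which met the count minimum through wild-type libraries alone. The median log2 fold change was -0.25 over members and -0.01 over all tested genes, and 33 of 51 members lay below 0. By family, 7 of 17 ADAMTS genes (3 higher, 4 lower), 1 of 4 ADAMTSL genes and 2 of 15 MMP genes passed, and none of the 15 ADAM genes did. With all libraries, DESeq2 and limma-voom also called 0 ADAM genes, and 1 ADAM gene (Adam11) had an unadjusted p under 0.05. Without wild-type replicate 3, edgeR called Adam11 as lower and Adam8 as higher. A family of 15 genes is too small to set 0 calls apart from the 9.64% called over all tested genes. The number of members called changed when single libraries were left out. Without Rnf111+/- replicates 1, 2 and 3 in turn, 2, 1 and 1 members were called as higher and 3, 2 and 2 as lower, while 4.97%, 3.07% and 3.23% of all tested genes were called. Without wild-type replicates 1, 2 and 3 in turn, 1, 1 and 6 were called as higher and 5, 6 and 9 as lower, while 5%, 4.77% and 16.2% of all tested genes were called.

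**Figure D1:**
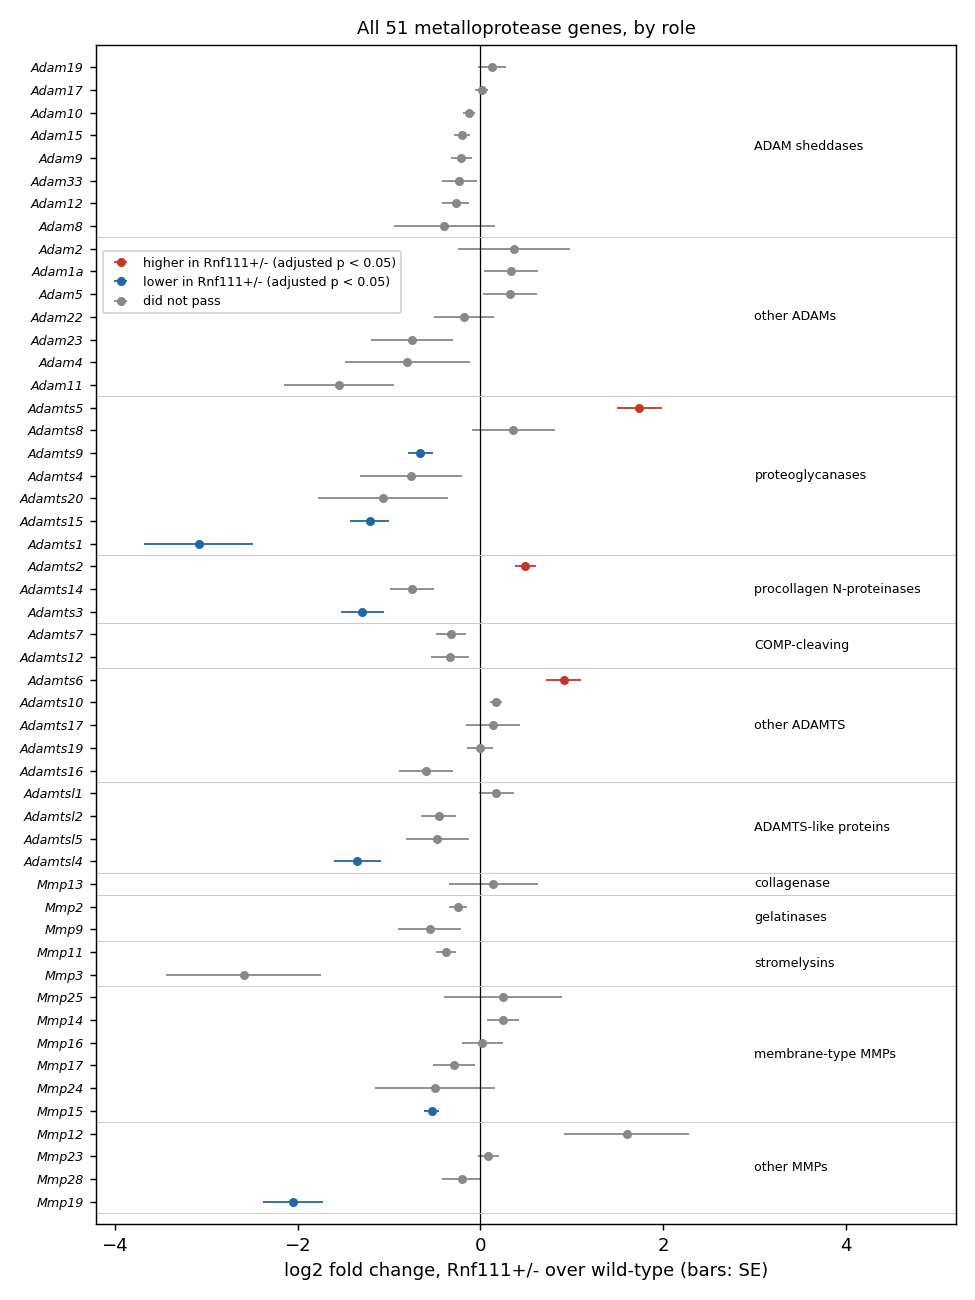
Log2 fold change of Rnf111+/- over wild-type ovaries for all 51 members, grouped by role, with bars of 1 SE derived from edgeR's quasi-likelihood F test on 3 libraries per genotype. The 3 red points (Adamts5, Adamts6 and Adamts2) lie to the right of 0, and the 7 blue points to the left, from -0.53 for Mmp15 to -3.08 for Adamts1.

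Levels of different genes were set side by side per kilobase of exon, using exon lengths of an earlier annotation (GENCODE M21), so they are approximate. On that scale Mmp11, Adamts1, Adam10, Mmp14, Mmp2 and Adamts2 were the highest members in wild-type ovaries. These 6 made up 64.3% of the summed level of all members in Rnf111+/- ovaries and 66.7% in wild-type ovaries. Adamts1 was at 6.81 ± 0.625 CPM per kilobase in Rnf111+/- ovaries, rank 11 of the family, and at 57.8 ± 41.3 in wild-type ovaries, rank 2 (SD, n = 3 each). Wild-type replicate 3 carried that rank: the wild-type libraries were at 46.8, 23.0 and 103.4 CPM per kilobase, and without replicate 3 the mean was 34.9, rank 5. Mmp11, which encodes stromelysin-3, ranked 1 in both genotypes, at 63.9 ± 6.17 in Rnf111+/- ovaries and 83.0 ± 10.6 CPM per kilobase in wild-type ovaries.

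**Figure D2:**
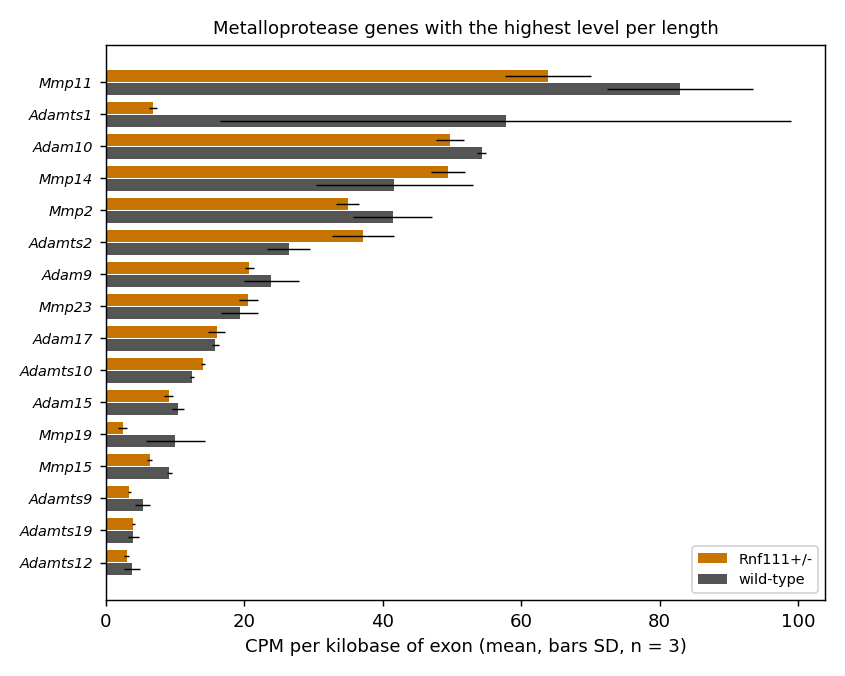
Level of the 16 members highest in wild-type ovaries, in CPM per kilobase of exon, as mean and SD of 3 libraries per genotype. The Adamts1 bars differ most between the genotypes, and Mmp11 has the highest bar in both.

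In the main edgeR fit of all libraries, the largest fall and the largest rise of the family were both in proteoglycanase genes. Of 7 members in this group, Adamts5 rose and Adamts1, Adamts15 and Adamts9 fell, while Adamts4, Adamts8 and Adamts20 did not pass. Adamts1 was at 36.0, 32.8 and 39.5 CPM in Rnf111+/- ovaries, against 248, 122 and 548 CPM in wild-type ovaries. The lowest wild-type library was thus above every Rnf111+/- library, and the wild-type libraries themselves were far apart (coefficient of variation 71.5%, against 9.17% among Rnf111+/- libraries). The log2 fold change was -3.08 ± 0.60 (SE, adjusted p = 0.0396). Without wild-type replicate 3, the highest library, it was -2.35 (adjusted p = 0.0245), and without wild-type replicate 2 the call also held. It was lost without Rnf111+/- replicates 1, 2 and 3 (adjusted p = 0.104, 0.15 and 0.128) and without wild-type replicate 1 (0.088), as well as with no filter on low counts (0.093).

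Adamts5, the main aggrecan-cutting protease of mouse cartilage, went the other way. It was at 39.03, 56.3 and 73.6 CPM in Rnf111+/- ovaries, against 17.4, 19.4 and 13.8 CPM in wild-type ovaries, and the genotypes did not overlap. The rise was 3.34-fold (log2 1.74 ± 0.24, adjusted p = 0.00853), and the call held in all 6 fits that left out a library. In the RefSeq annotation Adamts1 and Adamts5 are neighbours on chromosome 16 with no other protein-coding gene between them. In the main edgeR fit the largest fall and the largest rise of the family thus came from adjacent genes, but other fits ranked them differently. Mmp12 rose more than Adamts5 without wild-type replicate 3 (log2 2.72 for Mmp12 and 1.62 for Adamts5) and with limma-voom (2.05 for Mmp12 and 1.70 for Adamts5). The same held with the replicate block (1.983 and 1.704) and without Rnf111+/- replicate 3 (1.579 and 1.502). Mmp3, a gene of few counts, fell more than Adamts1 with limma-voom (-3.046 for Mmp3 and -2.825 for Adamts1). It also did so without Rnf111+/- replicate 1 (-3.655 and -3.082). Of the other neighbouring pairs of members, Adamts15 was called and Adamts8 (0.36 ± 0.45, adjusted p = 0.67) was not, and neither Mmp12 nor Mmp13 was called.

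Adamts15, another versican-cutting protease, was at 2.81, 3.75 and 3.34 CPM in Rnf111+/- ovaries and at 6.34, 7.39 and 9.22 CPM in wild-type ovaries (log2 -1.21 ± 0.21, adjusted p = 0.0115). All Rnf111+/- libraries lay below all wild-type libraries. The call was lost without Rnf111+/- replicate 3 (adjusted p = 0.0532). Adamts9, a versican-cutting protease related to GON-1 of the worm, was at 47.0, 52.8 and 52.4 CPM in Rnf111+/- ovaries and at 71.0, 70.1 and 98.9 CPM in wild-type ovaries (-0.66 ± 0.14, adjusted p = 0.0246). Its call was lost without Rnf111+/- replicates 1, 2 and 3 (adjusted p = 0.0943, 0.0872 and 0.0864). Adamts4, which cuts aggrecan and versican, was at 5.98, 9.96 and 9.93 CPM in Rnf111+/- ovaries and at 8.85, 7.18 and 27.8 CPM in wild-type ovaries, so the genotypes overlapped. Its log2 fold change was -0.76 ± 0.56 (adjusted p = 0.46) with all libraries, and 0.12 without wild-type replicate 3 (adjusted p = 0.793). Adamts20 (22 counts summed over Rnf111+/- libraries and 46 over wild-type libraries) and Adamts8 (56 over Rnf111+/- libraries and 43 over wild-type libraries) had few counts and did not pass.

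**Figure D3:**
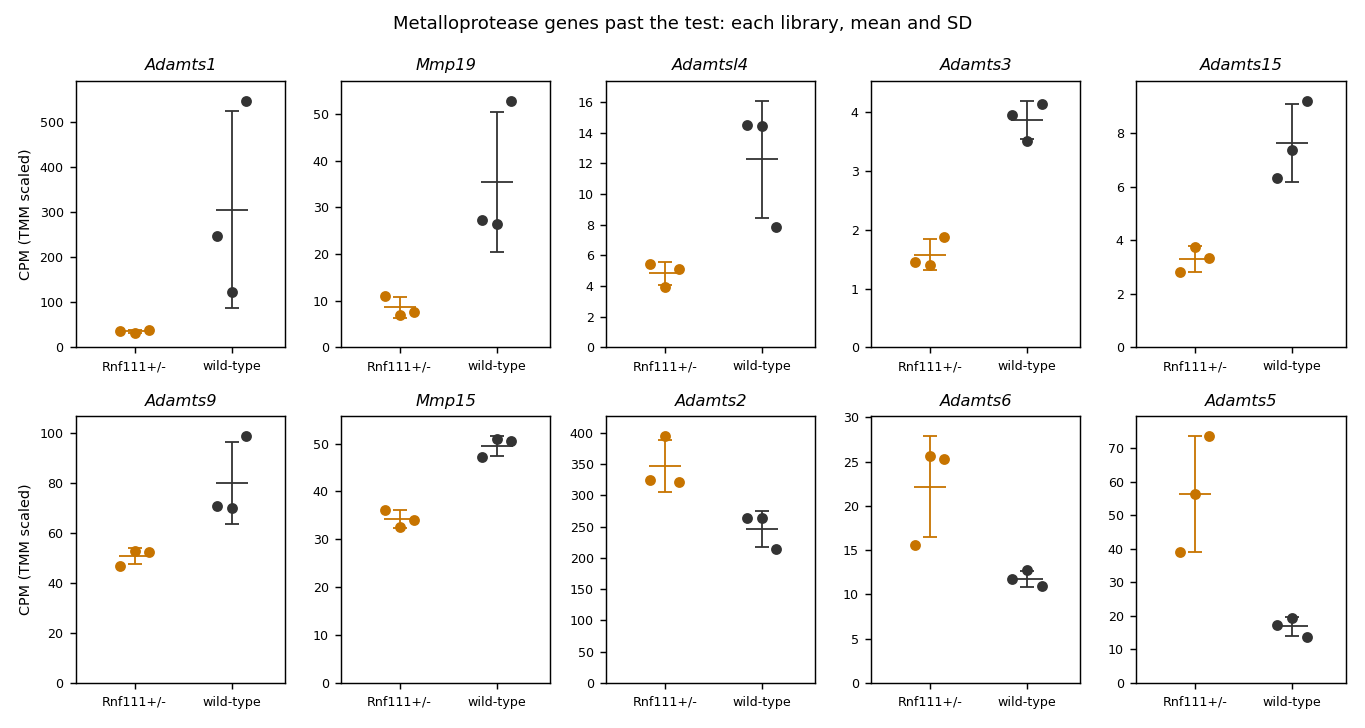
CPM of the 10 called members in each library, with the mean and SD of 3 libraries per genotype, on axes that start at 0. Points of the genotypes do not overlap in any panel, and the wild-type spread is widest for Adamts1, from 122 to 548 CPM.

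The procollagen N-proteinases also moved in both directions. Adamts2, the main N-proteinase of fibrillar collagen in skin, was at 324, 394 and 322 CPM in Rnf111+/- ovaries, against 263, 263 and 213 CPM in wild-type ovaries. This was a 1.41-fold rise (log2 0.49 ± 0.11, adjusted p = 0.0294) with no overlap. It was lost without any single library other than wild-type replicate 3, with adjusted p = 0.0618, 0.103 and 0.0662 without Rnf111+/- replicates 1, 2 and 3 and 0.0556 and 0.0595 without wild-type replicates 1 and 2. Adamts3, which processes procollagen II and the lymphatic growth factor VEGF-C, was at 1.44, 1.40 and 1.88 CPM in Rnf111+/- ovaries and at 3.94, 3.50 and 4.14 CPM in wild-type ovaries (-1.29 ± 0.24, adjusted p = 0.0137). Every Rnf111+/- library was below every wild-type library, and the call was lost without Rnf111+/- replicates 1 (0.053) and 2 (0.0715). Adamts14, the remaining N-proteinase, was at 2.84 ± 0.648 CPM in Rnf111+/- ovaries and 4.78 ± 0.662 CPM in wild-type ovaries (-0.75 ± 0.24, adjusted p = 0.0899). Its genotypes did not overlap, and it passed with DESeq2 (adjusted p = 0.0339). The stroma markers, which include procollagen genes, were lower in Rnf111+/- ovaries as given above.

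Of the other ADAMTS genes, Adamts6 rose. It was at 15.6, 25.7 and 25.3 CPM in Rnf111+/- ovaries, against 11.7, 12.7 and 10.9 CPM in wild-type ovaries, a 1.88-fold rise (log2 0.91 ± 0.19, adjusted p = 0.0229). Rnf111+/- replicate 1 was closest to the wild-type range, and without it the log2 fold change was 1.11. The call was lost without Rnf111+/- replicates 2 and 3 (adjusted p = 0.095 and 0.0932) and without wild-type replicates 1 and 2 (0.0704 and 0.0585). Adamts10, a relative of Adamts6 whose product acts on fibrillin microfibrils, was at 116 ± 2.30 CPM in Rnf111+/- ovaries and 103 ± 2.47 CPM in wild-type ovaries (0.17 ± 0.06, adjusted p = 0.121). Its genotypes did not overlap, at 114 to 119 CPM in Rnf111+/- ovaries and 100 to 105 CPM in wild-type ovaries. Adamts16 (-0.59 ± 0.29, adjusted p = 0.251), Adamts17 (0.14 ± 0.30, adjusted p = 0.821) and Adamts19, at 56.1 ± 3.68 in Rnf111+/- ovaries and 56.2 ± 10.9 CPM in wild-type ovaries (adjusted p = 0.994), did not pass. Neither did Adamts7 (-0.32 ± 0.16, adjusted p = 0.258) or Adamts12 (-0.33 ± 0.21, adjusted p = 0.383), whose products cut cartilage oligomeric matrix protein (COMP).

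ADAMTSL proteins resemble ADAMTS proteases but lack the catalytic part. Adamtsl4, whose product binds fibrillin-1, was at 5.43, 3.96 and 5.09 CPM in Rnf111+/- ovaries, against 14.5, 14.4 and 7.87 CPM in wild-type ovaries (log2 -1.34 ± 0.26, adjusted p = 0.0159). Wild-type replicate 3 was the lowest of its group and still above all Rnf111+/- libraries, and without it the log2 fold change was -1.57 (adjusted p = 0.000139). The call was lost in each of the other 5 fits that left out a library, with adjusted p = 0.0513, 0.0788 and 0.0704 without Rnf111+/- replicates 1, 2 and 3 and 0.0554 and 0.059 without wild-type replicates 1 and 2. Adamtsl2, which binds a latent TGF-beta binding protein and fibrillin, was at 14.3 ± 3.19 CPM in Rnf111+/- ovaries and 19.5 ± 3.48 CPM in wild-type ovaries (-0.46 ± 0.19, adjusted p = 0.183). Adamtsl5 (-0.47 ± 0.34, adjusted p = 0.44) and Adamtsl1 (0.18 ± 0.19, adjusted p = 0.612) did not pass.

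Promoters of called members were read from RefSeq tables (build GRCm38.p6), as 250 bases before and 50 bases after the start of the gene, and an entry was found for 6 of the 10. The 3 printed are those of Adamts1 (the largest fall), Adamts2 (the largest rise with an entry) and Mmp15 (the smallest p). Capitals mark GC boxes (GGGCGG) and a TATA box (TATAAA), each searched on both strands.
Adamts1 (chr16:85803064-85803363, minus strand): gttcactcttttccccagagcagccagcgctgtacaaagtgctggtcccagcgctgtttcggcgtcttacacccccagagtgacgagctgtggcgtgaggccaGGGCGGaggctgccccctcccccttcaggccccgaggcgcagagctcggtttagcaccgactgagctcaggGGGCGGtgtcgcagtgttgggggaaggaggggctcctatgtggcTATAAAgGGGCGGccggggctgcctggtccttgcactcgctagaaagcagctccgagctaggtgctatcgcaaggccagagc
Adamts2 (chr11:50601835-50602134, plus strand): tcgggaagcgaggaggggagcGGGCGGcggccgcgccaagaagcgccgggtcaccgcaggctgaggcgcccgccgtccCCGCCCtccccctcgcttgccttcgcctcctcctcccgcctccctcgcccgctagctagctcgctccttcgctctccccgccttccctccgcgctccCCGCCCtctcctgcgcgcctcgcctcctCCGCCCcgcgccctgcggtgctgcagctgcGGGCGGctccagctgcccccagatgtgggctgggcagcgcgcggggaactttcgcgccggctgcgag
Mmp15 (chr8:95352046-95352345, plus strand): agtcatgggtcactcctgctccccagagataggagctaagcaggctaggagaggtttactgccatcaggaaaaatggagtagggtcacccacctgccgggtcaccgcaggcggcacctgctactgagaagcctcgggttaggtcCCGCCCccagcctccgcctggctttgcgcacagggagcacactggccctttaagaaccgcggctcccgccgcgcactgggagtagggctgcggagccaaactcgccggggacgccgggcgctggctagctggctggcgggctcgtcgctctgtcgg
The Adamts1 window held a TATA box that begins 32 bases before the start, and 3 GC boxes. A GC box was found in all 6 promoters of called members, in 19 of 29 member promoters with an entry and in 35.9% of all 27025 promoters. TATAAA was found in 1 of the 6, in 4 of 29 and in 14.2%. The SMAD box CAGAC was found in 1 of the 6 (Adamts3), in 13 of 29 and in 49.7% of all promoters. The RUNX motif TGTGGT (0 of 6, 5 of 29, 16.9%), the AP-1 motif TGANTCA (0 of 6, 2 of 29, 7.93%) and the cAMP response element TGACGTCA (0 of 6, 0 of 29, 1.88%) had no match in the called members' windows. These are matches of letters in a short window and say nothing of binding.

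Among MMP genes, Mmp19 and Mmp15 fell and 13 did not pass. Mmp19, which cuts basement membrane proteins, was at 11.1, 7.05 and 7.63 CPM in Rnf111+/- ovaries, against 27.3, 26.4 and 52.8 CPM in wild-type ovaries. The genotypes did not overlap, and the log2 fold change was -2.05 ± 0.33 (adjusted p = 0.0144). Without the highest wild-type library, replicate 3, it was -1.63 (adjusted p = 0.000204). The call was lost without Rnf111+/- replicates 2 and 3 (0.0726 and 0.0731) and with no filter on low counts (0.0519). In the annotation, 22.3% of Mmp19's exonic length is shared with Tmem198b on the opposite strand. Whether counting used strand is not stated, so reads of the 2 genes may be mixed or lost. Tmem198b was at 16.4 ± 0.937 CPM in Rnf111+/- ovaries and 21.3 ± 1.95 CPM in wild-type ovaries (-0.38 ± 0.11, adjusted p = 0.0728). The same caution holds for Timp3 (21.3% shared with Syn3) and Adam15 (20.6% shared with 4731419I09Rik), also on opposite strands. Mmp15, a membrane-type MMP, was at 36.1, 32.5 and 34.1 CPM in Rnf111+/- ovaries and at 47.2, 50.9 and 50.5 CPM in wild-type ovaries. The spread within each genotype was small, the log2 fold change was -0.53 ± 0.08 (adjusted p = 0.00657), and the call held without each of the 6 libraries in turn.

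Mmp14, the membrane-type MMP that activates the precursor of MMP2, was at 305, 278 and 301 CPM in Rnf111+/- ovaries and at 203, 217 and 326 CPM in wild-type ovaries. Wild-type replicate 3 was above all Rnf111+/- libraries and the other 2 wild-type libraries below them, so the genotypes overlapped (0.24 ± 0.17, adjusted p = 0.441). Mmp2, gelatinase A, was at 124, 112 and 117 CPM in Rnf111+/- ovaries and at 125, 133 and 162 CPM in wild-type ovaries, without overlap (-0.25 ± 0.10, adjusted p = 0.169). Mmp11 was at 177 ± 17.1 CPM in Rnf111+/- ovaries and 230.4 ± 29.3 CPM in wild-type ovaries (-0.38 ± 0.11, adjusted p = 0.0612), and it passed with DESeq2 (adjusted p = 0.0264) and with no filter on low counts (0.0292). Mmp16, Mmp17, Mmp24, Mmp25, Mmp28 and Mmp23 had log2 fold changes between -0.50 and 0.25 and none passed.

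Mmp12, the macrophage elastase, was at 16.8, 20.8 and 19.7 CPM in Rnf111+/- ovaries, against 4.04, 1.79 and 13.1 CPM in wild-type ovaries. All Rnf111+/- libraries were above all wild-type libraries, but wild-type replicate 3 was near them, and the difference of 1.60 ± 0.68 on the log2 scale did not pass (adjusted p = 0.218). Mmp12 passed with limma-voom (2.05, adjusted p = 0.0418). Of 8 macrophage and myeloid markers, none was called by edgeR. They summed to 339 to 439 CPM in Rnf111+/- ovaries and to 349, 315 and 513 CPM in wild-type replicates 1, 2 and 3. Wild-type replicate 3 was thus the highest library here too, and the part of macrophage content in the Mmp12 values was not tested. Mmp9, gelatinase B, which neutrophils also carry, was at 2.91, 3.47 and 4.47 CPM in Rnf111+/- ovaries and at 5.79, 7.33 and 2.81 CPM in wild-type ovaries (-0.55 ± 0.35, adjusted p = 0.367). The 8 neutrophil markers summed to 2.503 to 4.04 CPM in Rnf111+/- ovaries and 1.62 to 3.98 CPM in wild-type ovaries, with Elane at 0 in every library.

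Mmp3, stromelysin-1, had 7, 3 and 0 counts in Rnf111+/- libraries, against 11, 19 and 31 in wild-type libraries. The ratio of summed counts, scaled by library totals, was 0.162 (95% counting interval 0.0739 to 0.318). Mmp3 entered the family through wild-type libraries alone, so neither its low ratio nor its lack of overlap is a sign of a difference by itself. It did not pass (adjusted p = 0.0951). Mmp13, collagenase-3, had 47 counts summed over Rnf111+/- libraries and 42 over wild-type libraries (scaled ratio 1.10, 0.713 to 1.72).

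No ADAM gene passed with all 6 libraries. The principal sheddase genes Adam10, at 244 ± 10.2 CPM in Rnf111+/- ovaries and 267 ± 2.94 CPM in wild-type ovaries (log2 -0.13 ± 0.06, adjusted p = 0.257), and Adam17, at 114 ± 8.33 CPM in Rnf111+/- ovaries and 113 ± 3.27 CPM in wild-type ovaries (0.02 ± 0.07, adjusted p = 0.924), did not pass. An interval of 2 SE on each side ran from -0.25 to 0.00 for Adam10 and from -0.13 to 0.16 for Adam17. ADAM10 is the sheddase of Notch and many adhesion proteins, and ADAM17 releases TNF and ligands of the epidermal growth factor (EGF) receptor. Adam9 (-0.21 ± 0.11, adjusted p = 0.288), Adam12 (-0.27 ± 0.15, adjusted p = 0.306) and Adam15 (-0.20 ± 0.09, adjusted p = 0.209) were slightly below 0 and did not pass. Among ADAM genes whose products lack a working catalytic site, Adam11 was at 5.53, 4.24 and 3.06 CPM in Rnf111+/- ovaries and at 19.5, 14.5 and 3.58 CPM in wild-type ovaries. Wild-type replicate 3 was inside the Rnf111+/- range and the other wild-type libraries well above it (-1.55 ± 0.61, adjusted p = 0.178). Adam23, a further one of these, ranged from 7.38 to 21.9 CPM in Rnf111+/- ovaries and from 17.0 to 30.0 CPM in wild-type ovaries (-0.74 ± 0.45, adjusted p = 0.368). Adam1a, Adam2, Adam4 and Adam5, known mainly from testis or sperm, were at means of 0.198 to 2.92 CPM in Rnf111+/- ovaries and 0.345 to 2.32 CPM in wild-type ovaries, and none passed. Exons of Adam1a are shared over 63.7% of their length with another annotated gene on the same strand, so its counts are uncertain.

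Wild-type replicate 3 was the highest of the wild-type libraries for 29 of 51 members (56.9%, against 39.5% of all tested genes) and the lowest for 15 (29.4%, against 40.9%). Without it, 6 members were called as higher and 9 as lower, where 7.37% and 8.82% of all tested genes were called. All 10 members called with all libraries were called again, in the same direction. The 5 added were Mmp12 (log2 2.72 ± 0.31, adjusted p = 0.0011), Mmp14 (0.50 ± 0.07, adjusted p = 0.000728) and Adam8 (0.57 ± 0.15, adjusted p = 0.0256) as higher, and Adam11 (-1.98 ± 0.24, adjusted p = 0.000476) and Mmp9 (-0.85 ± 0.23, adjusted p = 0.0296) as lower. Adam8, a sheddase of leukocytes that is named here after its values were seen, was at 10.6, 11.9 and 11.02 CPM in Rnf111+/- ovaries and at 7.46, 7.70 and 28.9 CPM in wild-type ovaries. Its log2 fold change was -0.39 ± 0.55 with all libraries (adjusted p = 0.716), so its direction depended on that library.

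**Figure D4:**
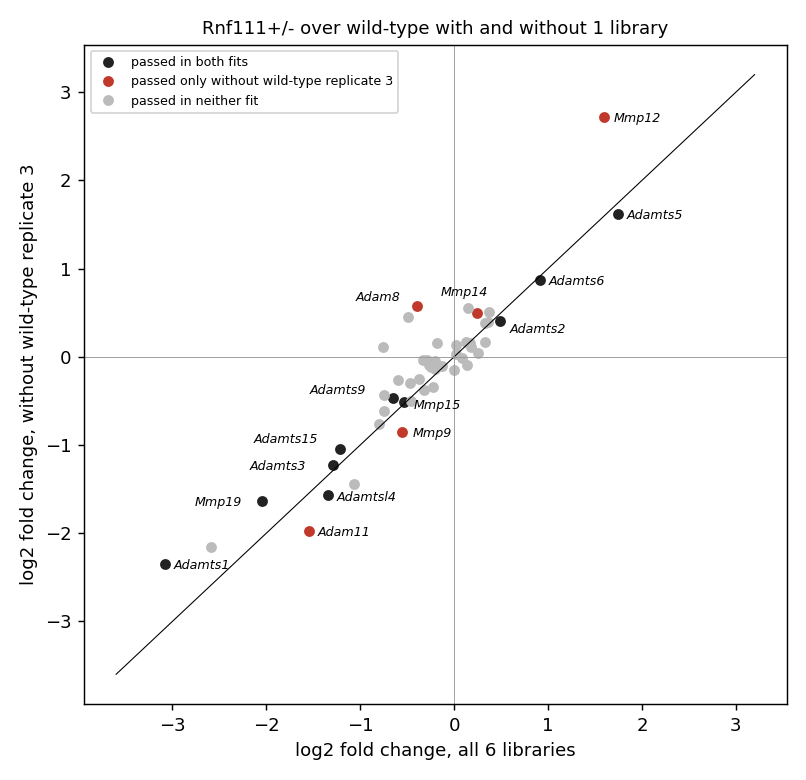
Log2 fold change of Rnf111+/- over wild-type for each member, with all 6 libraries (x axis) and without wild-type replicate 3 (y axis), with a line of equal values. Black points passed in both fits, and the 5 red points (Mmp12, Mmp14, Adam8, Adam11 and Mmp9) passed without that library alone.

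The genes that inhibit, activate or depend on these proteases were counted from 5 lists of 33 genes, of which 30 were tested, 3 rose (10%, against 3.90% of all tested genes) and 6 fell (20%, against 5.74%). Without Rnf111+/- replicates 1, 2 and 3 in turn, 1, 2 and 1 of these genes were called as higher and 4, 3 and 3 as lower, and without wild-type replicates 1, 2 and 3 in turn, 2, 2 and 4 as higher and 6, 5 and 7 as lower. The share of all tested genes called in those fits ran from 3.07% to 16.2%. Of the inhibitors, Timp4 had 36, 14 and 8 counts in Rnf111+/- libraries, against 572, 567 and 380 in wild-type libraries (log2 -4.73 ± 0.47, adjusted p = 0.00155). The call held without each library in turn, with -5.51 without Rnf111+/- replicate 1, the highest of its group. Reck, a membrane-anchored inhibitor of MMPs, was at 46.4, 42.9 and 42.2 CPM in Rnf111+/- ovaries and 30.6, 30.3 and 37.1 CPM in wild-type ovaries (0.43 ± 0.10, adjusted p = 0.0357). Its call held without wild-type replicate 3 (adjusted p = 0.00194) and was lost without each other library (adjusted p = 0.116, 0.108 and 0.0991 without Rnf111+/- replicates 1, 2 and 3, and 0.107 and 0.11 without wild-type replicates 1 and 2). The more abundant inhibitor genes did not pass. Timp1 was at 60.6, 46.4 and 64.4 CPM in Rnf111+/- ovaries and 69.5, 50.8 and 188 CPM in wild-type ovaries (-0.85 ± 0.53, adjusted p = 0.396), and its log2 fold change was -0.06 without wild-type replicate 3 (adjusted p = 0.856). Timp2 was at 323 ± 23.7 CPM in Rnf111+/- ovaries and 366 ± 53.0 CPM in wild-type ovaries (-0.18 ± 0.11, adjusted p = 0.351), and Timp3 at 343 ± 56.4 CPM in Rnf111+/- ovaries and 354 ± 22.3 CPM in wild-type ovaries (-0.05 ± 0.12, adjusted p = 0.841).

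Of 4 proprotein convertase genes, whose products cut the prodomain from many of these enzymes, Pcsk5 fell. It was at 43.4, 57.2 and 53.8 CPM in Rnf111+/- ovaries, against 134, 115 and 197 CPM in wild-type ovaries (-1.53 ± 0.22, adjusted p = 0.00967), with no overlap, and it was called without each library in turn. Pcsk6 (-0.28 ± 0.09, adjusted p = 0.102) and Pcsk7 (-0.24 ± 0.09, adjusted p = 0.115) were also lower without overlap, but did not pass. Furin did not pass either (0.00 ± 0.14, adjusted p = 0.995). Among 8 tested partners of ADAM17 and ADAM10, 3 fell, but the list went both ways, with 4 log2 fold changes above 0 and 4 below. Tspan14 (0.26 ± 0.08, adjusted p = 0.0771) and Tspan33 (0.59 ± 0.24, adjusted p = 0.168) were above 0 and did not pass. Tspan15, a tetraspanin that steers ADAM10 to N-cadherin, was at 36.7, 38.01 and 35.3 CPM in Rnf111+/- ovaries, against 91.3, 96.4 and 68.3 CPM in wild-type ovaries (-1.22 ± 0.13, adjusted p = 0.00119), and its call held in all 6 such fits. Tspan5, another ADAM10 partner, fell by 0.65 on the log2 scale (adjusted p = 0.013; 0.0675 and 0.0522 without Rnf111+/- replicates 2 and 3). Rhbdf2, which encodes the ADAM17 partner iRhom2, was at 34.6 ± 2.75 CPM in Rnf111+/- ovaries and 53.0 ± 8.60 CPM in wild-type ovaries (-0.61 ± 0.12, adjusted p = 0.0193), with adjusted p = 0.0558, 0.0726 and 0.087 without Rnf111+/- replicates 1, 2 and 3.

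Among matrix substrates, Comp rose, at 11.2, 3.78 and 4.73 CPM in Rnf111+/- ovaries against 0.418, 1.06 and 0.638 CPM in wild-type ovaries (log2 3.21 ± 0.52, adjusted p = 0.0114). Rnf111+/- replicate 1 was the highest, and without it the log2 fold change was 2.59 (adjusted p = 0.0229). Vcan, which encodes versican, was at 134, 117 and 121 CPM in Rnf111+/- ovaries and at 154, 166 and 309 CPM in wild-type ovaries. Its genotypes did not overlap, and it did not pass (-0.76 ± 0.28, adjusted p = 0.153). Of the membrane ligands that ADAM proteases release, 1 rose and 1 fell among 8 tested. Hbegf, heparin-binding EGF-like growth factor, was at 13.2, 9.55 and 12.1 CPM in Rnf111+/- ovaries and 3.94, 4.56 and 1.92 CPM in wild-type ovaries (1.74 ± 0.31, adjusted p = 0.0129), with the call lost without Rnf111+/- replicates 1 (0.0523) and 3 (0.0567). Ereg, epiregulin, was at 0.548, 0.868 and 0.340 CPM in Rnf111+/- ovaries and 1.67, 5.16 and 2.48 CPM in wild-type ovaries (-2.40 ± 0.51, adjusted p = 0.0248). Its call was lost without Rnf111+/- replicates 1, 2 and 3 (0.0948, 0.0559 and 0.0952), without wild-type replicate 2 (log2 -1.81, 0.0781) and with limma-voom (0.0515).

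**Figure D5:**
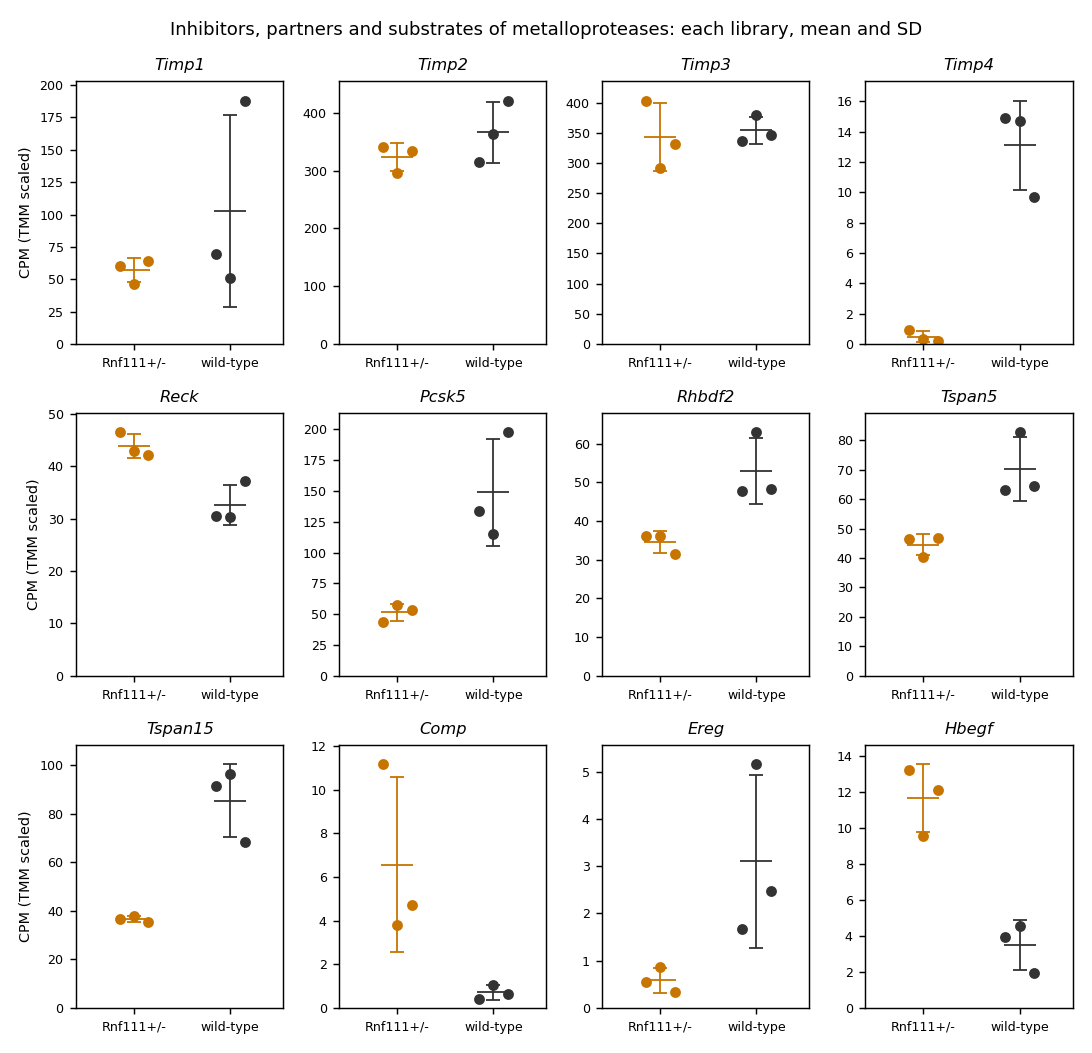
CPM in each library, with mean and SD of 3 libraries per genotype, of 12 genes that inhibit, activate or depend on metalloproteases, on axes that start at 0. Timp4, Pcsk5, Rhbdf2, Tspan5, Tspan15 and Ereg are lower and Reck, Comp and Hbegf higher in Rnf111+/- ovaries without overlap, while Timp1, Timp2 and Timp3 overlap.

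The count minimum that defines the family lay close to some genes. Just inside it, Adam4 had 2, 7 and 14 counts in Rnf111+/- libraries and 16, 10 and 14 in wild-type libraries, and Adamts20 had 3, 7 and 12 in Rnf111+/- libraries and 25, 15 and 6 in wild-type libraries. Just outside it, Mmp27 had 8, 7 and 7 counts in Rnf111+/- libraries and 15, 7 and 17 in wild-type libraries, and Adamtsl3 had 8, 8 and 10 in Rnf111+/- libraries and 5, 2 and 4 in wild-type libraries. Of the 31 family genes left out, the highest sum in either genotype was 39 counts, and 15 had no count in any library.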

How the data were processed

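RNA was measured by bulk RNA-seq in ovaries of 3 Rnf111+/- and 3 wild-type mice, grouped by the genotype label. The authors deposited 1 table of raw read counts per gene symbol. The submitters' processing notes name fastp 0.20.1, HISAT2 2.1.0, HTSeq 0.11.2, DESeq2 1.38.3 and build GRCm39. Which annotation and strand setting were used is not given in the sources used here. Counts were fitted in R 4.3.3 with edgeR 4.0.16 (trimmed mean of M values scaling, default expression filter, robust quasi-likelihood test, two-sided), with Benjamini-Hochberg adjustment over all 16841 genes tested and a threshold of 0.05. DESeq2 1.42.0, limma-voom (limma 3.58.1), other scalings and filters, a replicate block and leaving out each library were alternatives. Libraries held 38261449 to 39474515 counts. Counting intervals are exact 95% intervals and, like the floor of 3 counts, cover counting error only.

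The members and gene lists were chosen with earlier results of these data known. Genes named are all called members, up to 4 further members of each role group by smallest p, a short list of well-known members, called genes of the pathway lists, and Timp1 to Timp4. Adam2, Adam5, Adam8, Furin, Pcsk6, Pcsk7, Tspan14 and Tspan33, and any other gene outside this rule, were named after their values were seen. Exon lengths, overlaps (GENCODE M21) and promoters (RefSeq, GRCm38.p6) come from an earlier build than the counts, and were matched by gene symbol.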

Additional observations from a re-analysis of the deposited data

How the results depend on the processing

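With DESeq2 size factors, upper-quartile scaling or a stricter filter, 3 members were called as higher and 7 as lower, as in the fit reported. In those fits 9.63%, 9.67% and 11.5% of all tested genes were called. With no filter the members called were 3 and 6, while 6.88% of all tested genes were called. DESeq2 gave 3 and 9 (Adamts14 and Mmp11 added) with 15.5% of all tested genes, and limma-voom 4 and 7 with 9.46%. Leaving out 1 library gave 1 to 6 members as higher and 2 to 9 as lower, and 1 to 4 pathway genes as higher and 3 to 7 as lower, while 3.07% to 16.2% of all tested genes were called (9.64% with all libraries). DESeq2 called 5 pathway genes as higher and 7 as lower, and 15.5% of all tested genes. The replicate number was not shown to pair the libraries. Deviations of same-numbered libraries correlated at 0.023, 0.031 and 0.166, and not every library correlated best with its own number. The value for replicate 3 was the highest between the genotypes, and deviations from means of 3 libraries cannot settle whether they were paired. With the replicate block, 3 members were called as higher and 6 as lower, with Adamts1 at adjusted p = 0.0573, while 9.66% of all tested genes were called. That fit called 2 pathway genes as higher and 6 as lower, with Reck at 0.0507. The cause of these changes was not tested. Some log2 fold changes that did not pass with all libraries changed sign. Adamts19 was at 0.007 with DESeq2 size factors, 0.030 with upper-quartile scaling, 0.003 with no filter, 0.013 with the stricter filter, 0.007 with DESeq2, 0.017 with limma-voom and 0.014 with the replicate block. Over the fits that leave out 1 library, the log2 fold change ran from -0.145 to 0.097 for Adamts19, -0.281 to 1.151 for Mmp25, -0.181 to 0.064 for Timp3, -0.031 to 0.066 for Adam17, -0.080 to 0.554 for Mmp13, -0.092 to 0.430 for Adamts17, -0.010 to 0.175 for Mmp23, -1.081 to 0.115 for Adamts4, -0.917 to 0.450 for Mmp24 and -0.701 to 0.571 for Adam8. With 3 libraries per genotype and 2 where 1 is left out, small differences may go uncalled, and members with few counts are limited by depth.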
